A study of Mus musculus with 5 samples.

Results

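The surface markers by which blood progenitors are sorted were examined in a map of H3K27ac, a histone acetylation found at active promoters and enhancers. The 10 genes were listed by name as sorting markers, with no rule on measured values: Kit, Ly6a, Cd34, Slamf1, Cd48, Ptprc, Cd27, Cd93, Ly6d and Cd24a, out of 21887 protein-coding genes in the annotation. The map was 1 list of 22948 peaks that the authors made from 4 H3K27ac libraries together over 1 input library, the input being chromatin without the antibody step. All 5 libraries came from mouse bone marrow cells of the Mll3/4 deleted genotype, labelled HSC/MPP (haematopoietic stem cells and multipotent progenitors). They had been sorted for CD45.2, Sca1 and Kit on the surface and against lineage antigens. Adapters were added with the Tn5 transposase on the immunoprecipitated chromatin (ChIPmentation). The labels give neither age, strain, sex nor the way in which the alleles were deleted. Control genotypes were not analysed here, and the list holds no value of a single library. There is therefore no replicate error, no test between libraries and no measure of gain or loss, and each value below describes the 4 libraries as the authors combined them.

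Several of these genes encode the antigens of the sort gate itself. Kit is the receptor for stem cell factor, Ly6a encodes Sca-1, a small protein held on the membrane by a lipid anchor, and Ptprc encodes CD45, the phosphatase found on nearly all white blood cells, of which CD45.2 is an allelic form. Other members divide the cells inside the gate. Slamf1 (CD150) marks long-term stem cells, its relative Cd48 appears as stem cells become multipotent progenitors, Cd34 encodes a sialomucin of early progenitors, and Cd27 encodes a receptor of the TNF receptor family on multipotent and lymphoid progenitors. Ly6d marks lymphoid progenitors committed towards B cells, Cd24a encodes the heat-stable antigen that is high on early B cells, and Cd93 encodes AA4.1, an antigen of early B-lineage cells that some stem and progenitor cells also carry. Kit, Ly6a, Cd34, Slamf1, Cd48 and Cd27 were taken as the 6 stem and multipotent markers, Ly6d, Cd24a and Cd93 as the 3 lymphoid progenitor markers, and Ptprc stood in neither group.

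The sequences before the gene starts are shown for 3 members whose listed start lay under or beside a peak (Ptprc, Cd48 and Slamf1), for Kit, whose first peak began just inside the gene, and for Cd34, which had no peak there. RefSeq promoter windows (GRCm38.p6) were at hand for 6 of the 10 members, and the 250 bases before the start are printed 5′ to 3′ on the gene's own strand. The annotated genes of Ptprc and Cd48 reach further upstream than the start listed for the window. Capitals mark the bases covered by an H3K27ac peak.
Ptprc, chr1:138175306-138175555, minus strand: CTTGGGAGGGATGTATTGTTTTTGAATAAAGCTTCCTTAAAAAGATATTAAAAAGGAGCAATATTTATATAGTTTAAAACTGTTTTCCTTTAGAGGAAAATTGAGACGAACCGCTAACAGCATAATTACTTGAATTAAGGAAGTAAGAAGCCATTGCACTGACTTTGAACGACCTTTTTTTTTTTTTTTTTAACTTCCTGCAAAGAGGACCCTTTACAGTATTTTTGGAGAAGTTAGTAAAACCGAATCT
Cd48, chr1:171681742-171681991, plus strand: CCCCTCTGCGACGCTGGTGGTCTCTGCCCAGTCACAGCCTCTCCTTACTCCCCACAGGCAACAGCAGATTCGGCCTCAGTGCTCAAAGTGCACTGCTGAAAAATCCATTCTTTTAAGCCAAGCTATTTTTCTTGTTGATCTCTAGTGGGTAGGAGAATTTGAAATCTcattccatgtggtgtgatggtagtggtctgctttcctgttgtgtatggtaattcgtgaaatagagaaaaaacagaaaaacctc
Slamf1, chr1:171766882-171767131, plus strand: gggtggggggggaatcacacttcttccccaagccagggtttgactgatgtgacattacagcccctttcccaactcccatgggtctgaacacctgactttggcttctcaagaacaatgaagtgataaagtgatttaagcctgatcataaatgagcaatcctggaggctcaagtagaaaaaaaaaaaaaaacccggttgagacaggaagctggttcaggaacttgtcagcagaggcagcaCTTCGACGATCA
Kit, chr5:75574737-75574986, plus strand: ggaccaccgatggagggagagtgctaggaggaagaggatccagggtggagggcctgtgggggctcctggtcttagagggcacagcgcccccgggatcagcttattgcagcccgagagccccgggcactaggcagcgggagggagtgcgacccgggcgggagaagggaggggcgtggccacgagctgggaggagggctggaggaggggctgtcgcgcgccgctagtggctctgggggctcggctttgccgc
Cd34, chr1:194938571-194938820, plus strand: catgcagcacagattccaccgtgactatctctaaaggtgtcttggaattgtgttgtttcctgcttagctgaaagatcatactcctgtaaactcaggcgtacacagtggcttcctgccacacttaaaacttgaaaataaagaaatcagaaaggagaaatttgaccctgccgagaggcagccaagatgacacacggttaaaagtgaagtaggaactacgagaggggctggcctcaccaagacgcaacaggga

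The peak at Ptprc covered all 250 of these bases, that at Cd48 covered 167 and left the 83 bases next to the start free, and that at Slamf1 covered the last 12. At Kit and Cd34, 0 of the 250 bases lay under a peak. The stretch of Kit held 17 CpG dinucleotides, more than 77.4% of the 32851 windows of the RefSeq table when ties were split evenly. The median over all windows was 6, with 17 in windows overlapped by a peak and 4 in windows without one. Cd34 had 6 CpGs, Cd27 had 5, Ptprc and Cd48 had 4 each and Slamf1 had 3, all within the quartiles of 2 and 16 over all windows. The GC content of the stretch of Ptprc, which had the strongest peak of the members at its start, was 31.6%, against a median of 52.4%. Of all 300-base windows of the table, 19.6% were overlapped by a peak, and of the 6 windows of members 3 were, those of Ptprc, Cd48 and Slamf1. For each member a single window was taken, the one nearest to the annotated gene start. The whole table can hold several windows of the same gene, so shares over all windows, here and below, are not shares of genes.

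Short motifs were sought in the same 250 bases on both strands. The motif AGATAA is bound by proteins such as Gata2, the motif GAGGAAGT by PU.1 and the motif TGTGGT by RUNX factors. Also sought were the palindrome of EBF, the E-box CAGCTG, the promoter element named GC box (GGGCGG) and the CCAAT box. The 6 members with a window held 2 matches in all, 1 GC box at Kit (bases 98 to 93 before the start) and 1 RUNX motif at Cd48 (bases 76 to 71 before the start, outside the peak). Among all windows, 32.7% held the GC box and 14.0% the RUNX motif. The shares for the others were 9.99% for the Gata2 motif, 2.44% for PU.1, 0.779% for EBF, 13.0% for the E-box and 33.8% for CCAAT. No listed motif contains another, and a match describes the sequence only.

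Of the 10 markers, 7 had a peak within 1 kb of either end of the gene, against 36.2% of all protein-coding genes. Ptprc, Cd24a, Cd27, Kit, Slamf1, Cd93 and Cd48 had one, and Ly6a, Cd34 and Ly6d had none. The count fell to 6 when peaks with a q-value above 0.05 were left out (34.4% of all genes), since the peak of Cd48 missed that level. It was also 6 when the summit had to lie nearer to the marker than to any other protein-coding gene (32.2% of all genes), since the peak of Cd27 did not. Under both conditions 5 were left (30.4% of all genes), namely Kit, Slamf1, Ptprc, Cd93 and Cd24a. The depth of the libraries is unknown, so a gene without a called peak may still have carried the mark below the level of detection.

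Peaks inside the gene but away from its ends were found in 3 of the 10 markers (16.6% of all genes), Kit, Ptprc and Cd93. Flanking peaks, up to 50 kb outside the gene, were found for 7 of 10 (57.8% of all genes), and 9 of 10 had a peak of any of these kinds (68.7% of all genes). Ly6d had none. In the list held to −log10 q of at least 5, 4 of the 10 had a peak at an end (24.0% of all genes), 1 in the body (7.34%) and 4 in the flanks (40.5%). The same 3 counts came from peaks with signal values from 4 up, with 23.2%, 6.85% and 39.2% of all genes. The 41 peaks counted for the markers were 41 different peaks, 9 at gene ends, 16 in gene bodies and 16 flanking. Of the 16 flanking peaks, 13 had their summit nearer to the end of another protein-coding gene, and the 3 that did not belonged to Ly6a, Cd34 and Ptprc. A q-value above 0.05 was attached to 12 of the 41 (29.3%), against 21.2% of the whole list, and 8 of these 12 lay in Kit.

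**Figure D1:**
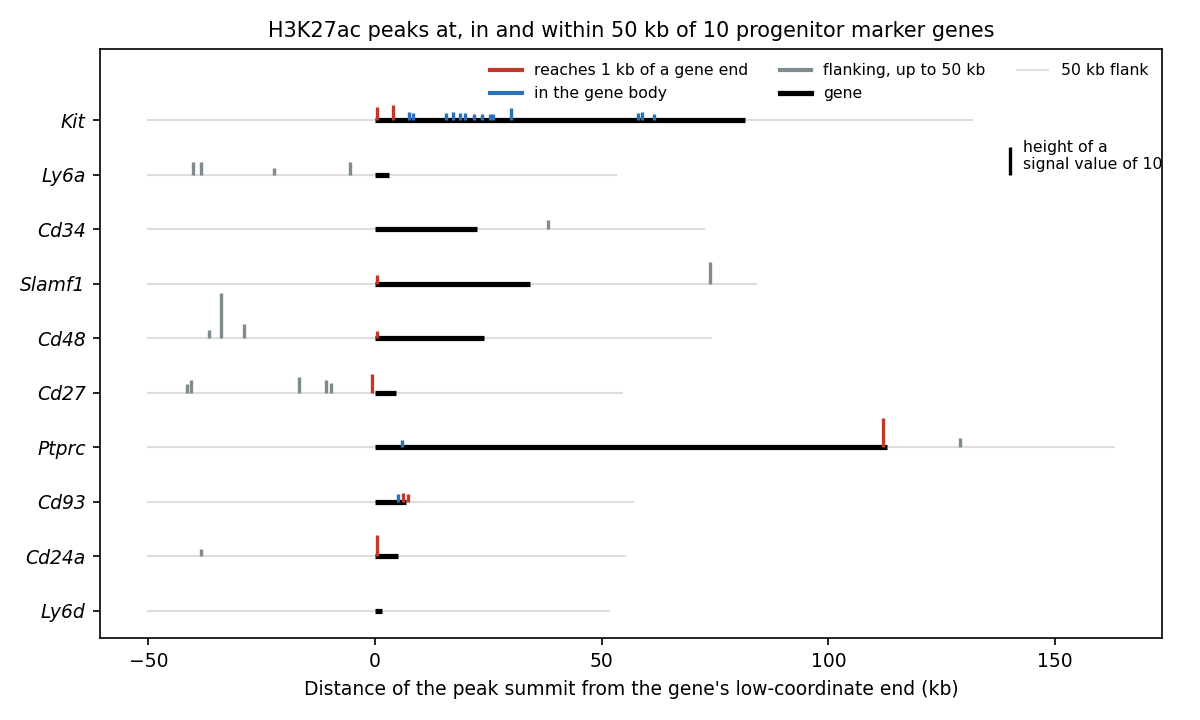
Positions of the H3K27ac peaks counted for each of the 10 marker genes, as the distance of the summit in kb from the gene's end at the lower coordinate. Black bars are genes, grey lines the 50 kb on either side, and the height of each tick is the authors' signal value. Kit carries 16 peaks inside the gene, Ly6d has none in the range shown, and most flanking peaks of Cd48, Cd27 and Ly6a stand away from the gene.

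Kit had the most peaks of the 10 in the list as deposited, counted within 50 kb. All 16 lay inside the gene, which is 81.7 kb long, and none lay in the 50 kb on either side. With −log10 q of at least 5, Kit had 3 and Cd27 had 4, and within 100 kb Kit and Ly6a had 18 each. As deposited, only 80 of the 21887 protein-coding genes (0.366%, Kit included) had at least as many peaks overlapping the gene as Kit, a count that grows with gene length. It also depends on how neighbouring peaks are split, and merging peaks within 1 kb left 6 of the 16. The peaks covered 25.6% of Kit, a share that ranked 827th among all genes. The first peak, chr5:75575091-75575654, began 104 bp after the annotated start and had a signal value of 4.68, where the signal value is the authors' ratio of the mark over background. Its −log10 q was 8.34. After a gap of 261 bp came the strongest peak of the gene, chr5:75575916-75582044, 6129 bp wide, with a signal value of 5.66 (−log10 q 12.1). Its summit lay 3.93 kb after the start, and it counted as a peak at the end only because its edge, 929 bp after the start, reached the 1 kb window.

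Most of the sequence of Kit under peaks lay in the first 31.0 kb of the gene, 19.1 kb against 1.88 kb further on. From 0.104 to 31.0 kb after the start, 13 peaks covered 61.7% of the sequence. No peak lay from there to 58.0 kb, and 3 weak peaks followed between 58.0 and 61.8 kb. Within the first stretch, signal values were high at both borders and low between them. After the 2 peaks at the start, 10 peaks had values from 2.29 to 3.05, and the last, chr5:75602550-75605994, 3445 bp wide and 29.9 kb after the start, reached 4.47 with −log10 q of 6.93. The 3 peaks past the gap had values of 2.60, 2.83 and 2.11. Of all 16, 8 had a q-value of at most 0.05, and with −log10 q of at least 5 only the 3 named by position were left.

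**Figure D2:**
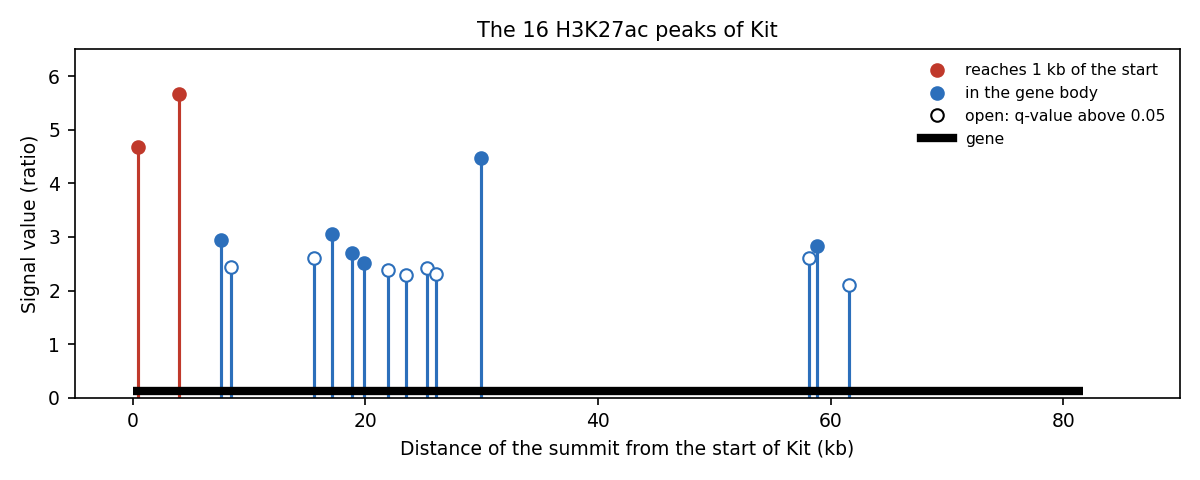
Signal value (authors' ratio over background) of the 16 peaks of Kit against the distance of the summit from the gene start in kb. Filled points have a q-value of at most 0.05 and open points a larger one. The highest points, at 5.66, 4.68 and 4.47, have their summits 3.93, 0.442 and 29.9 kb after the start, and no summit lies between 29.9 and 58.1 kb.

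Ly6a, the other gate antigen of the progenitors, had no peak at either end and none inside. Its nearest peak, chr15:74988078-74990589, lay 4.29 kb outside the lower end, was 2512 bp wide and had a signal value of 4.68 (−log10 q 8.34). It was the only one of 4 flanking peaks that was nearer to Ly6a than to another gene. The others had signal values of 4.65 and 4.71 at Ly6e, a neighbour of the same family, and 2.41 nearest to Ly6i. The Ly6 genes of this cluster resemble each other in sequence, and how reads that fit several of them were treated is not given in the sources used here. Strand was not in the tables used for Ly6a, Cd93, Ly6d and Cd24a, so start and end could not be told apart at these 4.

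Ptprc had the strongest peak at an end of any of the 10. The peak, chr1:138172353-138175924, was 3572 bp wide, with a signal value of 10.8 (−log10 q 39.6), and stood 347th by signal value among the 22948 peaks. It lay at the start of the gene, its summit 658 bp after the listed RefSeq start and 1.11 kb inside the annotated end. Ptprc therefore lost its end peak when the summit itself had to lie in the 1 kb window. Among the 7929 genes with an end peak, the strongest end peak of Ptprc stood at percentile 96.1. A peak 16.4 kb before the start had a signal value of 3.33, and a weak one 107 kb into the gene, with a signal value of 2.45, had a q-value above 0.05.

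The 2 SLAM family members were weakly marked at their starts. The peak at the start of Slamf1, chr1:171767120-171768338, had a signal value of 3.21 (−log10 q 2.68), at percentile 18.4 of genes with an end peak. That of Cd48, chr1:171681562-171681908, was 347 bp wide, with a signal value of 2.45 (−log10 q 0.799), at percentile 2.03. The strong peaks around them stood nearer to other genes of the SLAM cluster. Inside Slamf7, a peak of 6094 bp at chr1:171644976-171651069 had a signal value of 16.5 (−log10 q 77.3) and ranked 21st in the list. Its summit was 5.76 kb from an end of Slamf7 and 34.0 kb from the lower end of Cd48. A second peak, with a signal value of 5.20, spanned the end of Slamf7 that faces Cd48. On the other side, chr1:171840122-171842250 with a signal value of 7.77 lay inside Cd84, another SLAM receptor, its summit 39.8 kb past the end of Slamf1 and 1.24 kb from an end of Cd84. Slamf7 and Cd84 are named here for these peaks, which were seen before the names were chosen.

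Cd34 had neither a peak at an end nor one inside. Its only peak within 50 kb, chr1:194976660-194977862, lay 15.4 kb past the end of the gene, with a signal value of 3.30 (−log10 q 3.22). At Cd27, the peak at an end did not lie at the start. The peak, chr6:125231156-125232745, had a signal value of 6.79 (−log10 q 18.5), and 126 of its 1590 bases lay in Cd27, at the end opposite to the start. Its summit was 49 bp from an end of Tapbpl, a gene of antigen loading on MHC class I that ends 759 bp short of Cd27, and 711 bp from Cd27. No peak lay at the start of Cd27. The summits of all 5 flanking peaks were less than 1 kb from an end of Ncapd2 or Vamp1, with signal values from 2.97 to 5.54.

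The lymphoid progenitor markers ranged from none to the second strongest peak of the members' own ends. At Cd24a, chr10:43577159-43581539 had a signal value of 7.77 (−log10 q 22.5). It was 4381 bp wide, covered 46.5% of the gene and stood at percentile 84.1 of genes with an end peak. Cd93 had 3 peaks close together, 1 inside the gene and 2 at its upper end, with signal values of 2.90, 3.18 and 2.84 and −log10 q of 2.16, 2.68 and 1.67. The 2 that overlapped the gene covered 29.9% of it, and its strongest end peak stood at percentile 17.7. Ly6d had no peak at its ends, inside or within 50 kb, which was also the case for 31.3% of all protein-coding genes. The nearest peak was 52.4 kb away, at an end of Jrk, with a signal value of 2.25.

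**Figure D3:**
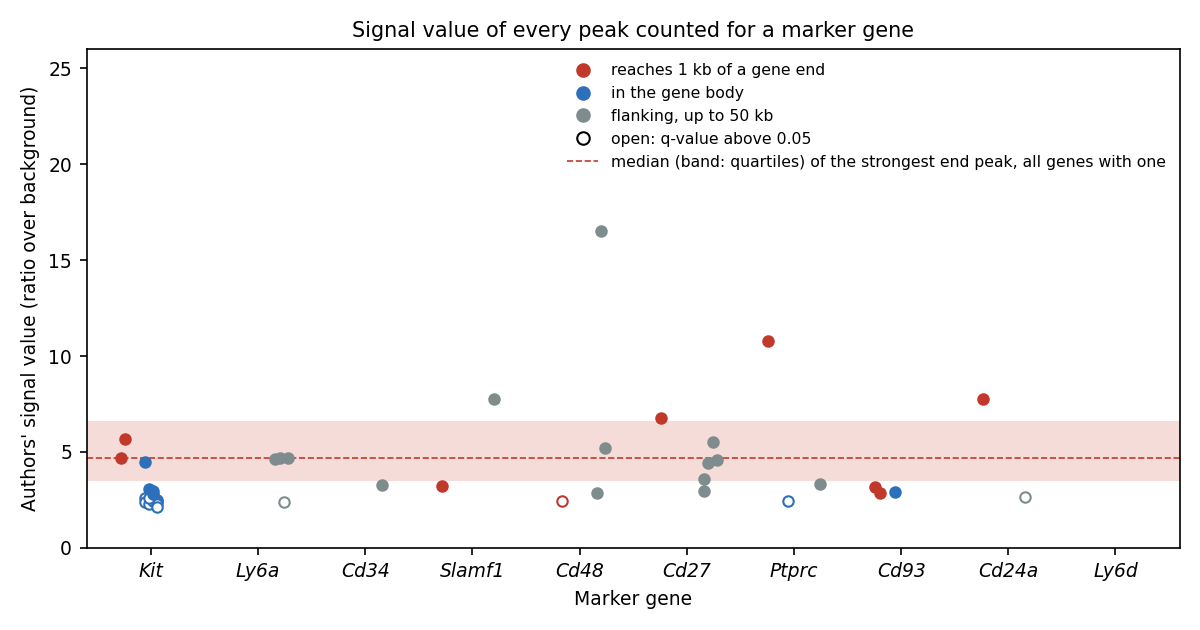
The authors' signal value (ratio over background) of each of the 41 peaks counted for a marker gene, by gene and by position. Open points have a q-value above 0.05. The dashed line and band give the median (4.71) and the quartiles (3.52 and 6.55) of the strongest end peak over the 7929 genes that have one. Ptprc, Cd24a and Cd27 have an end peak above the band, Slamf1, Cd48 and Cd93 lie below it, and the highest point is the flanking peak of Cd48 at 16.5.

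Set side by side, the stem and multipotent markers and the lymphoid progenitor markers had an end peak in 4 of 6 and 2 of 3 members, against 36.2% of all genes. Of the 4, Cd27 counted through the peak that is nearest to Tapbpl. Among peaks nearest to the marker the counts were 3 of 6 and 2 of 3 (32.2% of all genes), and with q-values up to 0.05 as well they were 2 of 6 and 2 of 3 (30.4%). The median of the strongest end peak was 4.44 for the 4 and 5.48 for the 2, against 4.71 for all genes with one, and without the Cd27 peak the first was 3.21. At q-values up to 0.05 the counts were 3 of 6 and 2 of 3, against 34.4% of all genes, and with −log10 q of at least 5 they were 2 of 6 and 1 of 3, against 24.0% of all genes. The median number of peaks in or within 50 kb of a gene was 4 (from 1 to 16) for the first group and 2 (from 0 to 3) for the second, against 2 for all genes. When only peaks nearest to the marker were counted, both medians were 1. The groups overlapped in each of these values, and with so few genes, which are not replicates, no test was made.

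Further surface genes of stem and multipotent cells and of lymphoid progenitors were then counted. None of them is an antigen that the labels name for the sort. Of 11 other stem and multipotent surface genes, 2 had a peak at an end, Cd81 (signal value 8.82) and Cd82 (4.01), both encoding tetraspanins, against 36.2% of all protein-coding genes. Those without were Procr, Esam, Tek, Eng, Alcam, Itga6, Cd9, Thy1 and Itga2b. Of 10 other lymphoid progenitor surface genes, 6 had one. The strongest was at Il7r, the interleukin 7 receptor chain that early lymphoid cells depend on, with a signal value of 11.2 and a width of 7160 bp. Bst2 and Enpep, which encodes the BP-1 antigen of pre-B cells, followed with 6.64 each, and Flt3, Cd79a and Cd79b also had a peak. Bst1, Spn, Ccr9 and Il2ra had none. The end peaks of both stem cell genes and of all 6 lymphoid genes had q-values up to 0.05. The median number of peaks in or within 50 kb was 2 for the first list and 6 for the second, against 2 for all genes. Procr, Tek, Cd79b and other genes of these lists had been looked at in these data before, so the lists are no independent evidence.

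Of 11 antigens of a usual lineage cocktail, against which such cells are depleted, 0 had a peak at an end, against 36.2% of all genes: Cd3e, Cd4, Cd8a, Cd5, Itgam, Ly6g, Klrb1c, Ms4a1, Itgax, Fcgr3 and Cd2. The labels do not name the antibodies of the lineage gate, so another choice of antigens could give another count. Ptprc, which had an end peak, was not in this list. Among lists of defining markers of other cell types, the count was 4 of 5 for B cells (Ebf1, Pax5, Cd79a and Cd79b, with signal values from 2.69 to 12.4, and not Ms4a1) and 1 of 6 for T cells (Cd3d, 4.90). It was 0 of 6 for granulocytes and monocytes, 0 of 5 for erythroid cells and 0 of 5 for megakaryocytes. Peaks in or within 50 kb of the gene, which 68.7% of all genes had, were found for 7 of the 11 lineage antigens, 5 of 5 B-cell, 4 of 6 T-cell, 3 of 6 granulocyte and monocyte, 4 of 5 erythroid and 4 of 5 megakaryocyte genes. Their median number per gene was 1, 9, 2, 1, 2 and 2 in that order, against 2 for all genes. The lists share genes: Cd79a and Cd79b stand in both the B-cell and the lymphoid progenitor list, Cd3e, Cd4, Cd8a, Ms4a1, Itgam and Ly6g in both the lineage list and a list of defining markers, and Itga2b in both the stem and the megakaryocyte list. The part of B-lineage cells in the counts of the lymphoid markers was not tested. In such a bulk list, fewer cells of a type and less of the mark per cell cannot be told apart.

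**Figure D4:**
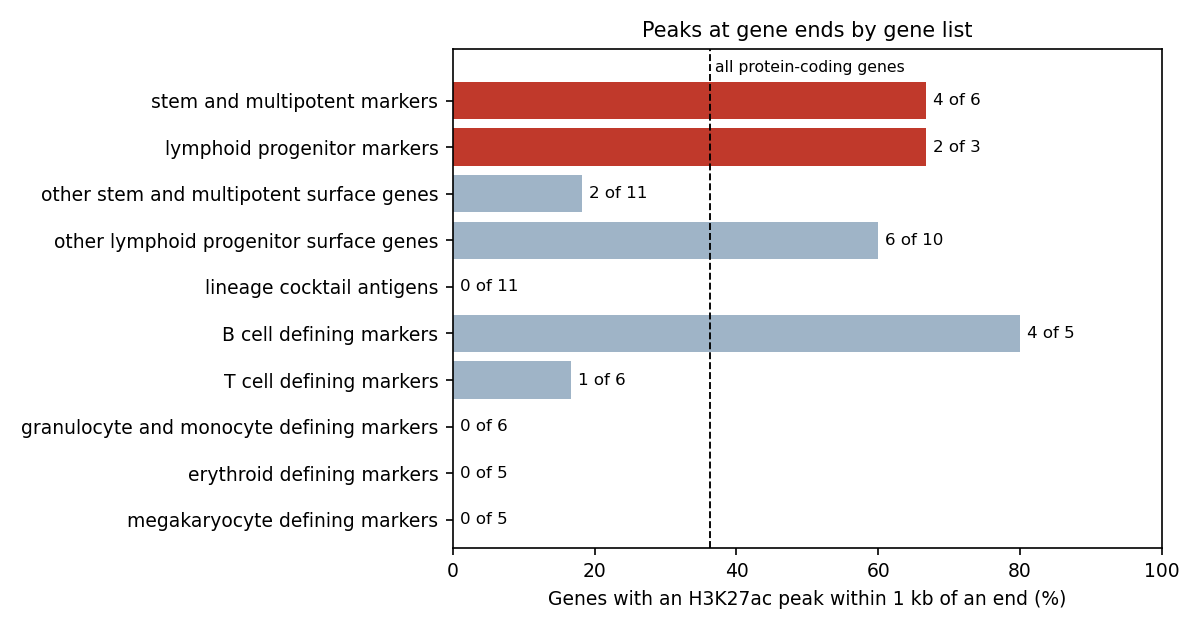
Share of genes in each list with an H3K27ac peak within 1 kb of an end, in percent, with the counts beside the bars. The dashed line is the share among all protein-coding genes, 36.2%. Both groups of sorting markers (red) lie at 66.7% when the Cd27 peak nearest to Tapbpl is counted, the other stem and multipotent genes at 18.2%, the other lymphoid genes at 60.0% and the lineage antigens at 0.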

How the data were processed

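H3K27ac ChIPmentation was done in mouse bone marrow cells, with 4 H3K27ac libraries and 1 input library of the Mll3/4 deleted genotype. BWA and MACS2 were used with build mm10 per the submitters' processing notes, which give no versions here. The name of the list carries the words overlap and optimal peak, and filters are not otherwise given in the sources used here. The deposited file is 1 narrowPeak list for the 4 libraries together. Its signal value is the authors' ratio of the mark over background, by the usual layout of this format, beside −log10 p and −log10 q for each peak, p-values and q-values also being the authors' and the deposited integer score, which was not used. Peaks were ranked and filtered by these values, within the list alone.

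Genes came from the RefSeq table of GRCm38.p6, which matched all listed symbols, and promoter windows from RefSeq of the same build. Coordinates are 1-based. A peak was at a gene end when it overlapped 1 kb on either side of an end, in the body when it overlapped the gene otherwise, and flanking when its edge lay within 50 kb. The assignment was tested on simulated data with planted peaks. Python 3.11.15 and pandas 2.3.3 were used. Some genes of the further lists are not reported here and were left out of their counts. The members were listed by name and not by a measured value, but they and the other lists were chosen with earlier results of these data known. All 10 members were to be named, and of the other lists those with a peak at an end with values for the 3 strongest; neighbouring genes were named from the values. Alternatives were stricter lists, other windows and distances, merged peaks and other groupings. No test was run, since no value of a single library was at hand.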

Additional observations from a re-analysis of the deposited data

How the results depend on the processing

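Of 104 recomputed values, 52 stayed within 1.5 times the reported one and 52 moved further; the alternatives of nearest peaks and of leaving out Kit were chosen after seeing the data. With −log10 q of at least 5 (8291 peaks), and likewise for signal values from 4 up (7787 peaks), 4 members had a peak at an end (24.0% and 23.2% of all genes), 1 in the body (7.34% and 6.85%) and 4 a flanking peak (40.5% and 39.2%), and the median per gene was 2.5 for stem and multipotent and 0 for lymphoid markers. Within 20 kb, 4 had a flanking peak (34.5% of all genes) and both medians were 1. Within 100 kb the stem and multipotent median was 8. With peaks nearest to the member, 3 had a flanking peak (9.72% of all genes) and both medians were 1. The lymphoid median was 1 at q-values up to 0.05 and 1 with Cd93 moved to the other group. For single members, 33 of 70 values moved, 28 of them down. For Kit, merging peaks within 1 kb left 6 of the 16. Beyond the fewer peaks or shorter distances that a setting allows, the cause was not tested. No paired analysis was possible because single libraries have no values in the list, and for the same reason no library could be left out. The unknown depth limits what the genes without a peak can show.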

Other observations

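Peaks just beyond the 50 kb range were counted after the values above had been seen. Ly6a had 14 peaks between 54.8 and 97.4 kb away, with signal values from 2.05 to 11.1. The strongest, chr15:74928596-74933846, was 5251 bp wide and had −log10 q of 41.8. Its nearest gene end, 21.8 kb from the summit, was that of Ly6e. Cd34 had 2 peaks between 53.2 and 58.6 kb away, with signal values of 2.32 and 3.70, and Kit had 2 between 64.4 and 70.6 kb away, with 2.26 and 2.78. Cd27 had 4, the nearest 67.1 kb away, with values from 2.29 to 5.75, and Cd48 had 2 between 61.9 and 73.9 kb away, with 3.21 and 3.95. Slamf1 had 1 at 85.2 kb, with 2.45. That one is the peak at the start of Cd48, and the one with 3.21 counted for Cd48 is the peak at the start of Slamf1. Of the lymphoid progenitor markers, Cd24a had 2 between 98.3 and 99.6 kb away, with 4.01 and 5.14, and Ly6d had 1 at 52.4 kb, with 2.25. No peak lay between 50 and 100 kb from Ptprc or Cd93. Which genes these peaks act on was not measured.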
